A study of Bos taurus with 12 samples.

Results

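Fatty acid uptake, activation, desaturation, storage and mitochondrial import were followed through the 8 genes SLC27A6, FABP5, ACSL3, FADS2, SCD, GPD1L, MOGAT1 and SLC25A20. Every probe set that the array annotation assigns to exactly 1 of these symbols was taken, which gave 12 of the 24016 probe sets of the bovine array, for 8 of 9155 named genes. ACSL3 had 3 probe sets, FABP5 and SLC25A20 had 2 each, and the other 5 genes had 1. The arrays measured total RNA of cattle (Bos taurus) in 4 groups of 3. Conceptuses whose embryos arose in vivo, by artificial insemination, are called AI. IVP conceptuses came from fertilization and culture in vitro, and SCNT conceptuses from the transfer of a somatic cell nucleus. All of these had been transferred to synchronized recipient cows as blastocysts on day 7 and were recovered, at comparable length, on day 16, so development in a recipient uterus is common to the 3 groups. FB denotes the fibroblasts that served as nuclear donors for SCNT, although their tissue label repeats that of the conceptuses. Breed, sire, fibroblast line and passage are not given in the labels. Nor is it stated if the 3 replicates of a group were separate conceptuses, pools or repeat hybridizations, so the p-values refer to a spread that may be technical.

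Long-chain fatty acids enter a cell with the help of membrane transport proteins, are carried in the cytosol by binding proteins and are activated to acyl-CoA by ligases. The activated acids can then be elongated and desaturated, joined to a glycerol backbone for membranes and storage fat, or moved into mitochondria as carnitine esters for oxidation. The elongating ruminant conceptus takes lipid from uterine secretions while its trophoblast enlarges, and it uses polyunsaturated acids for membranes and for prostaglandins.

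The tissue markers separated conceptuses from FB: 9 of 10 trophoblast markers on the array lay above log2 4 on every conceptus array and 0 on any FB array, while 9 of 10 fibroblast markers did so on FB arrays and 2 on conceptus arrays. Within groups the lowest Pearson's r between arrays was 0.978 (AI 2 with AI 3). IVP 1 correlated with SCNT 2 and SCNT 3 at 0.985 each and with IVP 3 at 0.982, so it was not nearest to its own group throughout. The mean of the 18 hybridization spike-in probe sets was higher on AI 2, IVP 2 and IVP 3 (8.57 to 8.61) than on the other conceptus arrays (7.69 to 8.08). Of the 7 blood and leukocyte markers on the array, ITGB2 and CD48 were above log2 4 on every AI array, and 0 to 1 markers were on IVP and SCNT arrays. Their summed linear signal was 298 to 672 in AI, 41.5 to 85.2 in IVP and 44.3 to 67.7 in SCNT, with PTPRC, CD3E, HBA and HBB below log2 4 throughout. XIST, the RNA of the inactive X chromosome, was at 2.42 on all SCNT and FB arrays, at 4.79, 4.88 and 2.57 in AI and at 4.0, 2.42 and 6.55 in IVP. Whether the groups differed in sex was not tested. RBP4, a hypoblast and yolk sac marker, was at 6.97 to 7.32 in AI, 6.15 to 6.67 in IVP and 5.05 to 6.03 in SCNT. In the same order GATA6, of the same list, overlapped throughout (7.66 to 7.97, 7.67 to 7.77 and 7.51 to 7.79). APOA1 overlapped between AI and each other group (11.68 to 12.23, 11.92 to 12.18 and 11.45 to 11.84). FGG was below log2 4 on every SCNT array and on both sides of it in AI and in IVP. GATA4, TTR and AFP were below log2 4 on all conceptus arrays. The summed signal of this list of 7 was 3699 to 5249, 4181 to 4981 and 3060.2 to 3949. Of the trophoblast markers PAG11 and KRT18 were lower in AI (11.55 to 12.30 and 12.01 to 12.44) than in IVP (12.91 to 13.17 and 12.89 to 13.14) and SCNT (12.99 to 13.24 and 12.96 to 13.19), without overlap. Conversely, TKDP1 was higher in AI (13.592 to 13.661) than in IVP (13.505 to 13.586) and SCNT (13.3985 to 13.569). SSLP1 was higher in AI (12.73 to 12.90) than in IVP (12.43 to 12.68), and KRT19 (12.27 to 12.62) than in SCNT (12.04 to 12.21). IFNT2, PAG2, TFAP2A and PTGS2 overlapped between AI and each other group. The summed trophoblast signal was 50085 to 56022.5 in AI, 57514 to 60655 in IVP and 55008 to 63255 in SCNT. The part of blood, hypoblast and trophoblast markers in the results that follow was not tested.

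The pattern over the groups was shared by both in vitro origins. Against AI, 6 of the 8 genes were higher in SCNT and in IVP conceptuses (SLC27A6, ACSL3, FADS2, SCD, GPD1L and MOGAT1) and 2 were lower (FABP5 and SLC25A20). All 12 probe sets passed the test in each of these comparisons, with 8 higher and 4 lower (limma, adjusted p under 0.05), and none passed between SCNT and IVP. Over all 6892 probe sets tested, 27.6% passed in SCNT against AI (16.2% higher, 11.4% lower), 17.9% in IVP against AI (8.42% higher, 9.49% lower) and 0.58% in SCNT against IVP. The groups' arrays did not overlap for any of the 12 probe sets in either comparison with AI, against 44.3% and 37.4% of all probe sets without overlap. These counts include SLC27A6, which entered the test only through IVP and SCNT arrays, so its direction was fixed once it was tested. The 8 genes were chosen with earlier results of these data known, so these counts describe the chosen genes and do not test them as a set. The comparisons with AI share the AI arrays, so their likeness is not independent evidence. In these whole-tissue samples fewer cells of a type and less RNA per cell cannot be told apart.

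**Figure D1:**
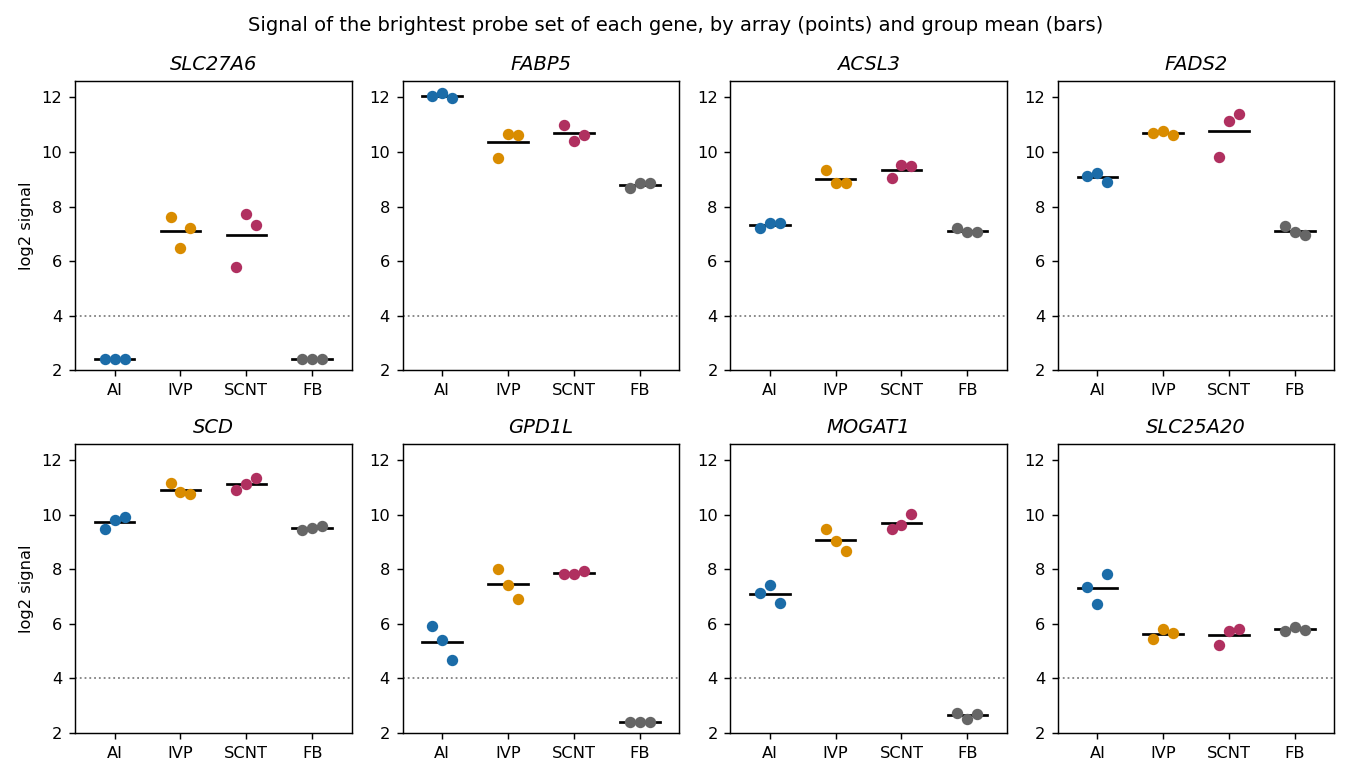
Log2 signal (vertical axes) of the brightest probe set of each of the 8 genes on the 12 arrays, by group. Points are arrays, bars are group means and the dotted line marks log2 4, below which levels were not read. SLC27A6 lies at 2.42 in AI and FB and between 5.78 and 7.73 in IVP and SCNT, while FABP5 and SLC25A20 are highest in AI.

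Uptake was represented by SLC27A6 (probe set Bt.26921.1.A1_at), a member of the fatty acid transport protein family. Its log2 signal was 2.42 on all 3 AI arrays, the lowest value of the whole table. On the IVP arrays it was 7.62, 6.46 and 7.23, and on the SCNT arrays 5.78, 7.73 and 7.33. The FB arrays lay at 2.42 as well, so the gene was above log2 4 on every array of the IVP and SCNT groups and on no array of AI or FB. With the AI arrays set to log2 4, the level was at least 8.60-fold higher in IVP and at least 7.71-fold higher in SCNT. The limma test used the deposited values, with the AI arrays at the lowest value (adjusted p = 0.00011 in IVP and 7.85e-05 in SCNT), and not these bounds. SLC27A6 entered the test only through the groups in which it was measured. Its spread was the widest of the 8 genes in SCNT (SD 1.03, n = 3), where SCNT 1 was lowest. Probe sets of 4 relatives, SLC27A1, SLC27A2, SLC27A4 and SLC27A5, stayed below log2 4 on every array of all groups, with a highest single value of 3.03.

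FABP5 encodes a cytosolic fatty acid carrier. Its brighter probe set, Bt.22869.1.S1_at, read 12.04, 12.17 and 11.97 on the AI arrays. It read 9.79, 10.67 and 10.62 in IVP, 11.004, 10.39 and 10.64 in SCNT, and 8.67, 8.85 and 8.88 in FB. Every AI array was thus above every other array, and every FB array below. The fall against AI was 3.25-fold in IVP (95% interval 2.27 to 4.65, adjusted p = 0.0011) and 2.605-fold in SCNT (1.82 to 3.73, adjusted p = 0.00221). The second probe set, Bt.22869.1.S2_at, moved in the same direction, from 9.72 ± 0.11 in AI (mean ± SD, n = 3) to 7.10 ± 1.07 in IVP and 8.14 ± 0.61 in SCNT. Its SCNT call (adjusted p = 0.0248) was lost when AI 1, AI 2, AI 3, SCNT 2 or SCNT 3 was left out (adjusted p from 0.0504 to 0.0967) and when XIST entered the fit as a covariate (adjusted p = 0.0638). In IVP the low value of IVP 1, 5.89 against 7.91 and 7.51, set much of the size: the log2 difference was -2.62 with it and -2.01 without it.

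Of the other carriers, FABP3, the heart type, was 10.78 ± 0.13 in IVP, 10.12 ± 0.08 in SCNT and 9.92 ± 0.50 in AI (n = 3 each). It was 1.81-fold higher in IVP than in AI (adjusted p = 0.0197) and did not pass in SCNT against AI (log2 difference 0.19, 95% interval -0.28 to 0.66). FABP4, the adipocyte-type carrier, was below log2 4 on all conceptus arrays by both probe sets, while its brighter probe set read 9.67 to 9.81 on FB arrays. Of the 5 adipocyte markers on the array, FABP4 among them, 0 were above log2 4 on any conceptus array.

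ACSL3 encodes a ligase of the endoplasmic reticulum and of lipid droplets that activates long-chain acids. Probe set Bt.17121.1.S1_at read 7.20, 7.40 and 7.40 in AI, 9.33, 8.86 and 8.86 in IVP, 9.06, 9.52 and 9.49 in SCNT, and 7.23, 7.05 and 7.08 in FB. AI and FB arrays thus overlapped and all IVP and SCNT arrays were higher. SCNT exceeded AI 4.07-fold (3.11 to 5.32, adjusted p = 4.88e-05) and IVP exceeded AI 3.22-fold (2.46 to 4.20, adjusted p = 2e-04). The other probe sets, Bt.19850.1.S1_at and Bt.19850.2.S1_at, rose 3.59-fold and 4.83-fold in SCNT and 2.87-fold and 3.05-fold in IVP. The 3 probe sets correlated with each other at 0.978 to 0.988 over the 9 conceptus arrays. ACSL6, another ligase of the family, was high in all conceptuses and did not pass in either comparison with AI (log2 differences 0.25, 95% interval -0.14 to 0.63, in SCNT and 0.18, -0.21 to 0.56, in IVP). In FB it was at 3.70 ± 0.13, below log2 4, so that AI exceeded FB at least 38.5-fold. ACSL1 and ACSL5 had the reverse distribution, with 6.86 ± 0.04 and 7.48 ± 0.13 in FB and below log2 4 on every conceptus array.

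FADS2 is the desaturase of the first step from dietary essential acids to longer polyunsaturated ones. Its probe set, Bt.3891.1.S1_at, read 9.12, 9.23 and 8.88 in AI, 10.69, 10.78 and 10.62 in IVP, 9.81, 11.13 and 11.38 in SCNT and 7.27, 7.08 and 6.97 in FB. The IVP arrays were close together (SD 0.08), and SCNT 1 lay apart from SCNT 2 and SCNT 3. The rise against AI was 3.23-fold in SCNT (1.96 to 5.32, adjusted p = 0.00418) and 3.08-fold in IVP (1.87 to 5.06, adjusted p = 0.00754). The IVP call ended with AI 2, IVP 2 and IVP 3 taken out together (adjusted p = 0.132, at a log2 difference of 1.69, with the 1 IVP array left assumed to vary like the other groups). It also ended with the gap between 3' and 5' GAPDH control probe sets, a sign of RNA quality, as a covariate (adjusted p = 0.0731). With no filter on low values, when all 24016 probe sets were tested, both calls ended (adjusted p = 0.0735 in SCNT and 0.112 in IVP). That gap was 0.21 to 0.38 in AI, 0.35 to 0.89 in IVP and 0.28 to 0.45 in SCNT.

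SCD introduces the double bond that makes oleate from stearate. Probe set Bt.4798.1.S2_at read 9.48, 9.81 and 9.91 in AI, 11.16, 10.83 and 10.77 in IVP, 10.92, 11.13 and 11.33 in SCNT and 9.44, 9.51 and 9.60 in FB. The smallest rises of the 6 genes were those of SCD, 2.62-fold in SCNT (2.02 to 3.40, adjusted p = 3.28e-04) and 2.27-fold in IVP (1.75 to 2.94, adjusted p = 0.00134). The probe set of its relative SCD5 was below log2 4 on all conceptus arrays and at 4.59 ± 0.17 in FB.

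GPD1L is related to the enzyme that makes glycerol 3-phosphate, the backbone of glycerolipids. Probe set Bt.26619.1.S1_at read 5.92, 5.41 and 4.69 in AI, 8.01, 7.44 and 6.93 in IVP and 7.81, 7.81 and 7.95 in SCNT. On the 3 FB arrays it was at 2.42, the lowest value of the table. The SCNT arrays were nearly equal (SD 0.08), whereas AI and IVP arrays ranged over more than 1 log2 unit. The rise was 5.73-fold in SCNT (3.56 to 9.23, adjusted p = 3.65e-04) and 4.34-fold in IVP (2.69 to 6.99, adjusted p = 0.00156), and the IVP call ended with no filter (adjusted p = 0.0507). GPD1, the cytosolic enzyme itself, was below log2 4 on all 12 arrays.

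MOGAT1 acylates monoacylglycerol to diacylglycerol. Its probe set, Bt.28476.1.S1_at, read 7.12, 7.43 and 6.76 in AI, 9.49, 9.05 and 8.68 in IVP, 9.46, 9.64 and 10.03 in SCNT and 2.74, 2.52 and 2.70 in FB. It rose 6.09-fold in SCNT (4.23 to 8.76, adjusted p = 6.54e-05) and 3.92-fold in IVP (2.73 to 5.65, adjusted p = 5.07e-04). Among the 6 genes that were higher than in AI, those of the glycerol backbone and of acylglycerol, GPD1L and MOGAT1, were the ones below log2 4 in fibroblasts yet above it in AI conceptuses.

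SLC25A20 is the carrier that exchanges acylcarnitine for carnitine across the inner mitochondrial membrane. Probe set Bt.11770.1.S1_a_at read 7.35, 6.74 and 7.83 in AI, 5.44, 5.81 and 5.66 in IVP, 5.23, 5.75 and 5.81 in SCNT and 5.74, 5.88 and 5.76 in FB. Only the AI arrays stood apart, above all 9 others. The fall was 3.27-fold in SCNT (2.21 to 4.84, adjusted p = 0.00118) and 3.18-fold in IVP (2.15 to 4.70, adjusted p = 0.00197). With no filter the IVP call ended (adjusted p = 0.0524) and the SCNT call did not. The second probe set, Bt.11770.1.S1_at, comes from the same source sequence and fell 2.38-fold and 2.48-fold, with both calls ended with no filter (adjusted p = 0.102 and 0.121). It held the identical value 4.23 on 3 arrays of the IVP, SCNT and FB groups, close to log2 4, below which levels were not read. On IVP 1 it was below that level, at 3.93. Within AI the order of the arrays, AI 3 over AI 1 over AI 2, was also that of ITGB2 (9.07, 8.44 and 7.91) and CD48 (6.65, 6.25 and 4.86), and the part of such markers in the fall was not tested. CPT2, the enzyme that re-forms acyl-CoA behind this carrier, was 5.13 ± 0.20 in AI, 4.84 ± 0.16 in IVP and 4.81 ± 0.11 in SCNT and did not pass (adjusted p = 0.193 and 0.131).

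**Figure D2:**
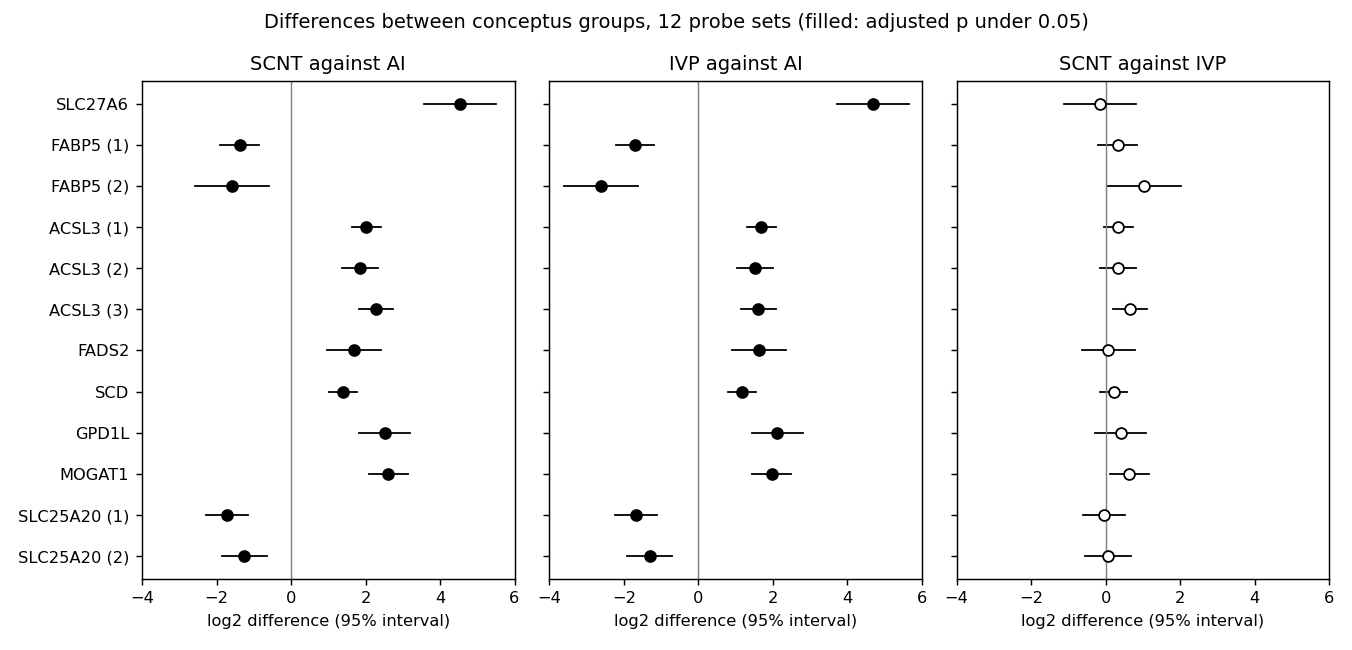
Log2 differences (horizontal axes) with 95% intervals for the 12 probe sets in the 3 comparisons among conceptuses; numbers in brackets count the probe sets of a gene and filled points passed at an adjusted p under 0.05. In both comparisons with AI 8 points lie right and 4 left of 0, and in SCNT against IVP all 12 are open.

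Between SCNT and IVP, 0 of the 12 probe sets passed in limma and 3 had an unadjusted p under 0.05. These were the third ACSL3 probe set (1.58-fold higher in SCNT, 95% interval 1.15 to 2.17, adjusted p = 0.225), MOGAT1 (1.55-fold, 1.08 to 2.23, adjusted p = 0.306) and the second FABP5 probe set (2.04-fold, 1.03 to 4.07, adjusted p = 0.371). Without IVP 1 the log2 difference of that FABP5 probe set fell from 1.03 to 0.43. For the third ACSL3 probe set alone every SCNT array lay above every IVP array, against 19.7% of all probe sets without overlap. The intervals leave room for differences in either direction elsewhere: SLC27A6 had a log2 difference of -0.16 (-1.12 to 0.80), FADS2 of 0.07 (-0.65 to 0.79), SCD of 0.21 (-0.16 to 0.58) and the brighter SLC25A20 probe set of -0.04 (-0.61 to 0.52). SCNT had the higher mean for 10 of the 12 probe sets, the exceptions being SLC27A6 and that SLC25A20 probe set. The median difference over all 6892 probe sets tested was 0.06, also toward SCNT, and some of the 12 belong to the same gene. No share over all probe sets was taken for this count or for the 3 with an unadjusted p under 0.05, so neither is read as a trend.

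Fibroblasts set the SCNT values against the nuclei they came from. Of the 12 probe sets, 10 were higher in SCNT than in FB, 9 in IVP than in FB and 7 in AI than in FB, with 1 lower in AI. SLC27A6, GPD1L and MOGAT1 were below log2 4 on every FB array. They entered these tests only through conceptus arrays, so a readable difference from FB could only be upward. Of all 8164 probe sets tested with FB, 79.9% passed against SCNT (45% higher in SCNT), 78.7% against IVP (43% higher in IVP) and 77.2% against AI (41.6% higher and 35.6% lower in AI), so most probe sets tested differed here. MOGAT1 was at least 52.2-fold higher in SCNT, at least 33.7-fold in IVP and at least 8.58-fold in AI than in FB. GPD1L was at least 14.5-fold, at least 10.98-fold and at least 2.53-fold higher in the same order. FADS2 was 12.7-fold higher in SCNT (7.93 to 20.2), 12.05-fold in IVP (7.54 to 19.2) and 3.92-fold in AI (2.45 to 6.26). FABP5, by its brighter probe set, was 9.58-fold higher in AI (6.90 to 13.3), 3.68-fold in SCNT (2.65 to 5.11) and 2.95-fold in IVP (2.13 to 4.10).

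For SCD and the brightest ACSL3 probe set the SCNT and IVP groups passed against FB and AI did not; the direct tests against AI are those given above. SCD did not pass in AI against FB (log2 difference 0.22, 95% interval -0.10 to 0.55) and was 3.06-fold higher in SCNT than in FB and 2.64-fold in IVP (adjusted p = 7.28e-07 and 2.78e-06). The brightest ACSL3 probe set had no call in AI against FB either (0.21, -0.13 to 0.55), against 4.71-fold in SCNT and 3.73-fold in IVP. The third ACSL3 probe set was lower in AI than in FB (log2 difference -0.47, adjusted p = 0.0361). SLC25A20 showed the reverse arrangement, 2.85-fold higher in AI than in FB (1.99 to 4.08, adjusted p = 9.09e-05), while SCNT and IVP did not pass against FB (-0.20, -0.72 to 0.32, and -0.16, -0.68 to 0.36). The second FABP5 probe set did not pass in IVP against FB (0.35, -0.59 to 1.28). Without IVP 1 it was 0.95 higher in IVP (adjusted p = 0.00791).

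Inside a group some of the genes were high or low on the same arrays. SCNT 1 had the lowest value of its group for 7 of the 8 genes (brightest probe sets) and the highest for FABP5. One of the 7, GPD1L, was practically tied between SCNT 1 and SCNT 2 (7.81 on each). IVP 1 had the highest value for 5 genes, SLC27A6, ACSL3, SCD, GPD1L and MOGAT1, and the lowest for FABP5 and SLC25A20. No AI array was like these, AI 3 being highest for 3 genes and lowest for 4. After subtraction of the group means, pairs of genes correlated over the 9 conceptus arrays from -0.89 (ACSL3 with FABP5) to 0.87 (ACSL3 with SCD). GPD1L correlated with MOGAT1 at 0.74 but with SCD at -0.02, FADS2 at 0.20 and ACSL3 at 0.24. SLC25A20 ranged from -0.41 with GPD1L to 0.32 with FADS2. SLC27A6 is left aside here because its AI arrays have no readable level, and these values describe the arrays without a background over all genes. IVP 1 was also the IVP array with the lowest spike-in mean (8.08 against 8.61 and 8.57) and the smallest GAPDH gap (0.35 against 0.51 and 0.89). The part of these measures in the gene levels was not tested.

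**Figure D3:**
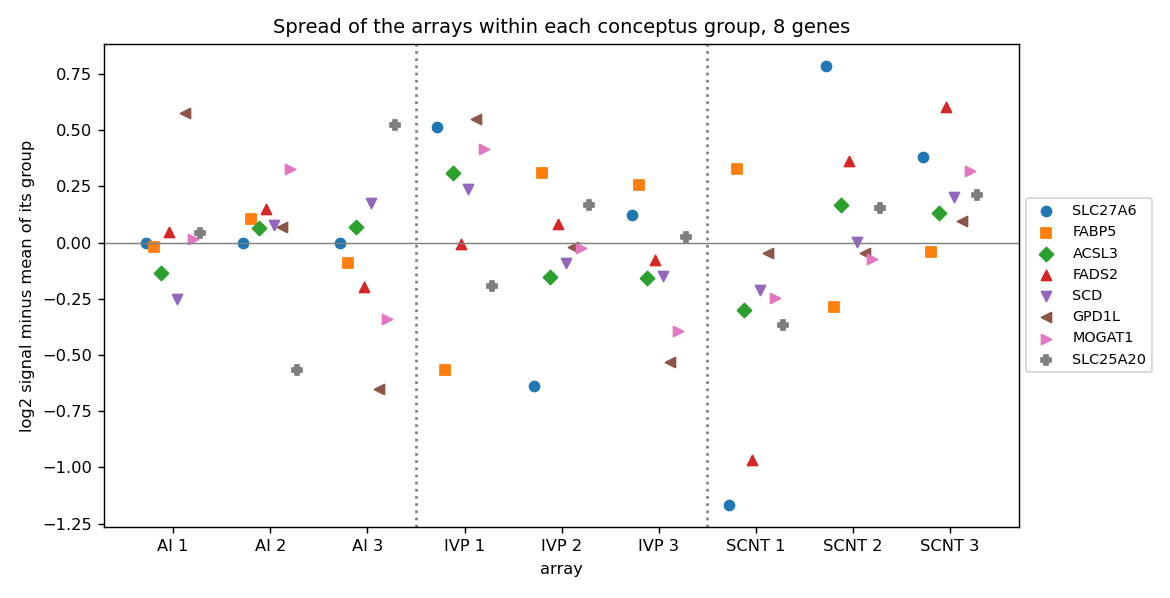
Log2 signal minus the mean of the array's own group (vertical axis) for the brightest probe set of each of the 8 genes on the 9 conceptus arrays. SCNT 1 has SLC27A6 at -1.17 and FADS2 at -0.97 with FABP5 at 0.33, and IVP 1 has SLC27A6 at 0.51 with FABP5 at -0.57.

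Over the 9 conceptus arrays the named probe sets most like each gene were found among about 5020 tested ones by Pearson's r, as a description: the points share arrays and the difference between AI and the other groups. For SLC27A6 the nearest was HSD17B1 (r = 0.987) and then ACSL3 (0.974). These values of r include the 3 AI arrays of SLC27A6 at 2.42, a level that was not read. For ACSL3 the nearest were CCND2 (0.990) and SCD (0.990). SCD had ACSL3 (0.990) and MTERF3 (0.976), so that SCD and ACSL3 were each among the nearest of the other. MOGAT1 lay closest to PTPN13 (0.998) and ATP1B3 (0.993), and GPD1L to KRT18 (0.981) and ATP1B3 (0.979). FADS2 was nearest to EPB41L5 (0.978) and PRXL2A (0.9746). Of the genes lower than in AI, FABP5 lay nearest MEMO1 (0.985) and ATP6V1C1 (0.985) and SLC25A20 nearest TUBB2B (0.979) and FGFR2 (0.979).

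**Figure D4:**
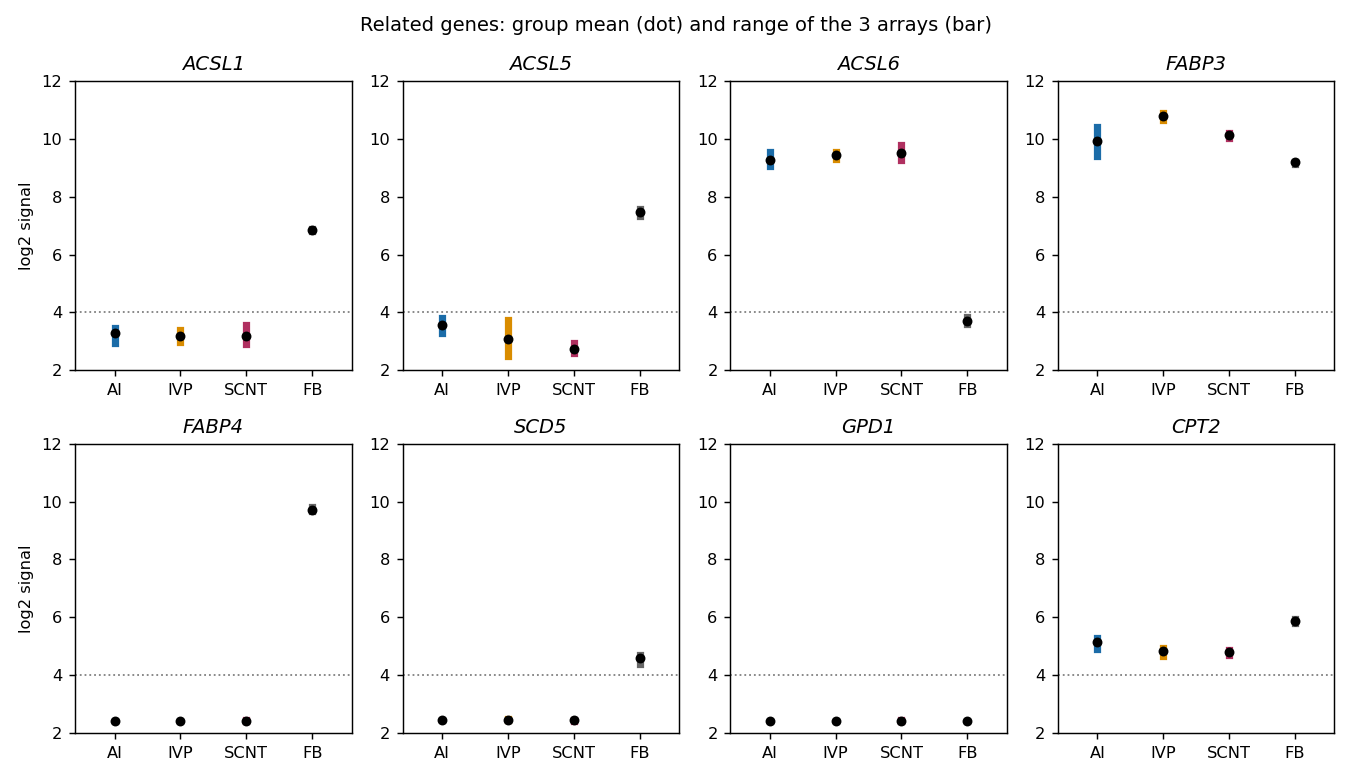
Log2 signal (vertical axes) of 8 related genes by group: dots are group means, bars span the 3 arrays and the dotted line marks log2 4. ACSL1, ACSL5, FABP4 and SCD5 are above the line in FB alone, ACSL6 in conceptuses alone and GPD1 in no group.

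The other genes of the same pathways changed about as often as genes in general. Of 217 further genes in 8 lists, 163 were on the array and 81 had a tested probe set, the brightest being read. In SCNT against AI, 14 of the 81 rose and 9 fell (28.4%, beside 28.2% of 4349 genes, 17.7% higher and 10.5% lower), and in IVP against AI 10 rose and 6 fell (19.8%, beside 17.6% of all genes, 9.47% higher and 8.14% lower). The median difference of the 81 genes was -0.04 and 0.02, against 0.10 and 0.06 for all genes. Between SCNT and IVP 0 passed in limma, beside 0.437% of all genes, and 11 had an unadjusted p under 0.05. The count of 23 in SCNT was 14 without SCNT 2, and the count of 16 in IVP was 7 without AI 1, 6 without AI 3, 9 without IVP 1 and 9 without IVP 3.

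In synthesis, elongation and desaturation 4 of 13 genes rose in SCNT and 5 in IVP, 0 fell, and 9 and 8 did not pass. The list's median difference was 0.06 and 0.12. FASN, the fatty acid synthase, rose 1.61-fold in SCNT (9.38 ± 0.06 against 8.70 ± 0.10, n = 3 each, adjusted p = 0.00266) and 1.52-fold in IVP (adjusted p = 0.00734). ELOVL5, which elongates the products of FADS2, rose 2.13-fold (adjusted p = 0.0236) and 2.05-fold (adjusted p = 0.0399). FADS3 rose at least 1.26-fold and at least 1.11-fold from below log2 4.

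In glycerolipid assembly 2 of 10 genes rose and 1 fell in each comparison. LPCAT3, which remodels phospholipids with polyunsaturated acids, rose 2.64-fold in SCNT and 1.94-fold in IVP by its brighter probe set (adjusted p = 4.21e-04 and 0.00514), and both of its probe sets passed. AGPAT3, an acyltransferase, rose 2.36-fold and 1.73-fold, with 3 of 3 probe sets passing in SCNT and 1 in IVP. GPD2, the mitochondrial glycerol phosphate dehydrogenase, fell at least 3.43-fold in SCNT (adjusted p = 0.00302 on the deposited values). In IVP it also passed (adjusted p = 0.0226), but its arrays ranged from 3.33 to 5.42 with 2 of 3 below log2 4, so no fold is given.

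Among 7 genes of acyl-CoA activation and hydrolysis 2 rose and 2 fell in SCNT, and 0 rose and 2 fell in IVP. ACOT8, a peroxisomal thioesterase, rose 3.45-fold in SCNT (adjusted p = 0.00273), and the acetyl-CoA synthetases ACSS1 and ACSS2 fell 1.71-fold and 1.48-fold in SCNT and 1.81-fold and 1.63-fold in IVP. Of the 2 tested probe sets of ACSS1, 1 passed in each comparison, the brighter one. Of 4 uptake and binding genes FABP3 was the 1 that passed, in IVP. Of 10 droplet and lipolysis genes 2 rose and 2 fell in SCNT, with BSCL2 (seipin) 1.61-fold higher, CIDEA 1.79-fold lower and ANXA2 1.49-fold lower, and in IVP 0 rose and 1 fell, ANXA2 by 1.54-fold.

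Mitochondrial oxidation genes beside SLC25A20 mostly did not pass. Of all genes 28.2% passed in SCNT against AI and 17.6% in IVP against AI. Of 17 genes 0 rose and 2 fell in SCNT, HIBADH 2.52-fold (adjusted p = 2.93e-04) and ECI1 at least 1.11-fold, and in IVP HIBADH alone fell, 2.02-fold (adjusted p = 0.00216). HIBADH acts in valine breakdown and ECI1 on unsaturated acids. The list's median was -0.31 in SCNT and -0.06 in IVP, against 0.10 and 0.06 for all genes. In SCNT 11 of the 17 did not overlap with AI and 8 had an unadjusted p under 0.05 in limma, and in IVP 4 and 1. Beside these, 44.3% and 37.4% of all probe sets did not overlap. The list thus lay lower in SCNT by small differences, most of which did not pass. Of 7 peroxisomal genes 2 rose in SCNT, the acyl-CoA transporter gene ABCD3 1.95-fold and PEX7 1.5-fold, and ABCD3 rose 1.66-fold in IVP. Among 13 regulators RXRA, a nuclear receptor that pairs with the fatty acid sensing PPARs, fell 2.21-fold in SCNT and 2.34-fold in IVP (adjusted p = 0.0103 and 0.0114). SREBF2, a regulator of sterol genes, fell 1.70-fold and the coactivator gene NCOA1 rose 1.81-fold in SCNT (adjusted p = 0.0158 and 0.00557). The SCNT mean of SREBF2 was 4.08 and its lowest SCNT array 3.84, below log2 4, so the size of its fall is uncertain.

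**Figure D5:**
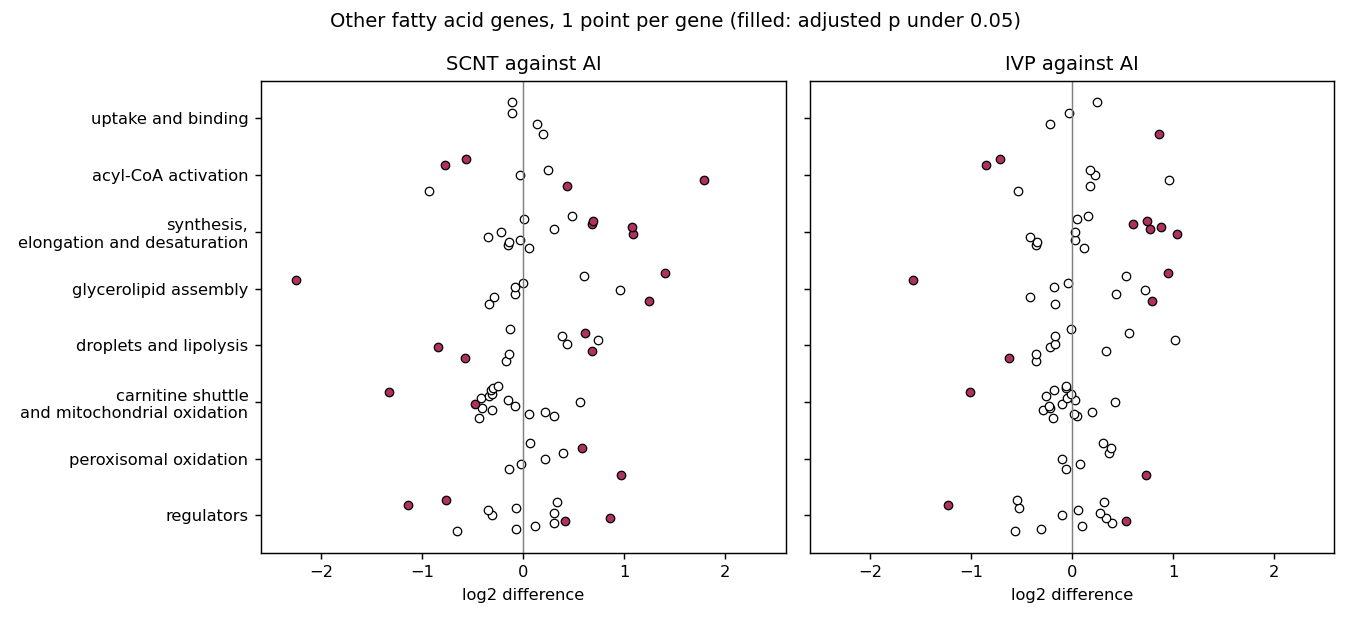
Log2 differences (horizontal axes) of the further genes of each list in SCNT against AI and IVP against AI, 1 point per gene at its brightest tested probe set; filled points passed at an adjusted p under 0.05. The filled points of synthesis, elongation and desaturation all lie right of 0, and GPD2 is the leftmost point of glycerolipid assembly.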

How the data were processed

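Per the labels' protocols, RNA of conceptuses (10 mg) and donor cells was amplified, biotin-labelled and hybridized to Affymetrix bovine arrays. The deposited values are log2 signals. GCRMA and limma are named in the submitters' processing notes; neither their versions nor a joint normalization of the 12 arrays is stated there. The table held 24128 probe sets, 112 of them controls, and 36.8% of values lay within 0.01 of the lowest, 2.42. Levels below log2 4 were not read, and such arrays of a group with a mean below 4 were set to 4 for a fold, which is then "at least". The p-values beside such folds come from the deposited values. Of the probe sets, 13292 have 1 symbol in the platform annotation, 86 several and 10638 none; RefSeq identifiers of ARS-UCD2.0 were found for 13263 and changed 0 symbols.

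A probe set entered the test if 3 or more arrays exceeded log2 4, with limma 3.58.1 in R 4.3.3, in a fit of the 9 conceptus arrays or, with FB, of all 12. P-values are two-sided and adjusted by Benjamini and Hochberg over all probe sets tested. The fit was also run on simulated independent normal values with means kept above log2 4 and no filter. That run does not cover probe sets near the lowest value, such as SLC27A6 in AI. The 12 probe sets were tested in all 6 comparisons, SLC27A6 being too low to read in AI against FB. The median standard error of a difference, 0.16 among conceptuses, limits precision, as does the number of arrays.

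The members, the lists and the tests were chosen with earlier results of these data known. Named were all members, up to 3 called genes of each list with the smallest adjusted p and no overlap of arrays, 17 relatives (12 on the array), and for each member the 2 nearest named probe sets. Same-numbered arrays of different conceptus groups had deviations correlated at -0.15 to 0.15, and other pairs at -0.14 to 0.18, so no pairing by number was seen. With groups of 3, such values cannot exclude that arrays of the same number shared a day or a batch. Filters, normalizations, a floor, variance models, other arrays in the fit, covariates and omission of each array were tried; the XIST and GAPDH covariates, and omission of arrays for the lists, were chosen after seeing the data.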

Additional observations from a re-analysis of the deposited data

Results flagged for a closer look

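The probe set Bt.19850.2.S1_at of ACSL3 was flagged because its arrays moved in opposite directions from FB: all 3 AI arrays lay below every FB array, and all IVP and SCNT arrays lay above. AI was lower than FB by a mean log2 difference of -0.47 (adjusted p = 0.0361 in limma), SCNT was 1.80 higher and IVP 1.14 higher. The direct tests of the conceptus groups passed, with SCNT 2.27 and IVP 1.61 above AI (adjusted p = 6.54e-05 and 7.55e-04). The fall in AI ended without AI 1, AI 3 or any FB array (adjusted p from 0.0635 to 0.12), and the other 2 probe sets of ACSL3 did not pass in AI against FB. Groups of 3 arrays were not examined for outlying arrays.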

How the results depend on the processing

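In the comparisons with AI, the log2 differences of the 12 probe sets kept their sign in all 478 refits, and 461 stayed on the same side of the threshold. With no filter, when all 24016 probe sets were tested, the count of called probe sets fell from 12 to 7 in IVP and from 12 to 9 in SCNT; the lost ones were FADS2, the second FABP5 and the second SLC25A20 probe sets in both, and GPD1L and the first SLC25A20 probe set in IVP. Omission of 1 array left 11 to 12 calls in SCNT against AI, 12 in IVP against AI, 0 in SCNT against IVP, and 7 to 8, 9 to 10 and 10 against FB for AI, IVP and SCNT. The second FABP5 probe set in IVP against FB turned to -0.86 (adjusted p = 0.0483) when the 3 arrays of highest spike-in level were left out, where IVP 1 alone stood for IVP and was assumed to vary like the other groups. The list counts were 9 in SCNT and 3 in IVP with no filter, and over the omission of each array 14 to 22 and 6 to 17; the cause was not tested. With the replicate number as a block (no pairing was found) 12 probe sets passed in both comparisons with AI, 1733 of all in SCNT and 1072 in IVP; the block ended 1 call, that of Bt.19850.2.S1_at of ACSL3 in AI against FB (adjusted p = 0.0564). Over all probe sets, calls in SCNT against AI were 984 with no filter, 918 at an adjusted p under 0.01 and 1167 without SCNT 2, against 1902. In IVP against AI they were 484 and 487, 693 without AI 1, 671 without AI 3, 795 without IVP 1, 817 without IVP 3, 415 without the 3 arrays of highest spike-in level and 502 with the GAPDH gap as a covariate, against 1234. In SCNT against IVP they were 7 with no filter, 6 at an adjusted p under 0.01, 127 in the fit of 12 arrays, 23 with the replicate block, 5 with the spike-in level, 7 with XIST and 8 with the GAPDH gap as a covariate, 3 without the arrays of highest spike-in level, 18 without SCNT 1, 7 without SCNT 2, 18 without SCNT 3, 14 without IVP 2 and 8 without IVP 3, against 40, and 0 of the 12 probe sets passed in any of them. The second SLC25A20 probe set gave no value with a filter at log2 5.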
